A study of Mus musculus with 6 samples.

Results

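The genes described are 10 that mark radial glia, the neural stem cells of the embryonic brain, or that carry Notch signalling in them: Nes, Vim, Fabp7, Hopx, Pax6, Sox2, Dll1, Notch1, Hes1 and Hes5. They were chosen by gene name from the 55359 annotated genes of the series, and each name matched 1 Ensembl gene. Earlier results of these data were known when they were chosen, so shares of the members beside those of all genes are a description only. Transcripts were measured by RNA sequencing of the whole brain of mouse embryos at E18.5, near birth. There were 3 libraries from embryos carrying a PME-1 S156A knock-in and 3 from wild-type (WT) embryos. Each library was made from 3 brains combined in one tube, so the spread between libraries is a spread between pools, and whether the pools came from separate litters is not given in the labels. The enzyme PME-1 (gene Ppme1) removes the methyl group from protein phosphatase 2A, and S156A replaces the serine of its active site by alanine. The labels name no strain, sex or zygosity.

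Radial glia line the ventricles of the developing brain, divide there and send a long fibre to the brain surface along which newborn neurons migrate. In the Notch pathway a ligand on one cell, such as the protein of Dll1, binds a receptor such as Notch1 on its neighbour, the receptor is cut by ADAM proteases and then by gamma-secretase, and its intracellular part joins the DNA-binding protein RBPJ to switch on Hes1 and Hes5. The HES proteins are repressors that hold back neurogenic genes and so keep radial glia undifferentiated, while the cell that expresses the ligand goes on to differentiate. Late in gestation radial glia turn from making neurons to making astrocytes, oligodendrocyte precursors and ependymal cells, and several of the genes named here stay on in astrocytes or are also used in vessels, meninges and muscle.

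The start regions of 4 members are shown because they hold letters that RBPJ or HES proteins are known to bind. Promoters of 9 of the 10 members, in 12 windows, were found in RefSeq's GRCm38.p6 table, each running from 250 bases before to 50 after a start; Hes1 was not among them. The RBPJ core was searched as TGGGAA and the N-box, a HES-binding sequence, as CACNAG, both on either strand, and the matches did not overlap between motifs in any of the 12 windows. Capitals mark the matches, written 5′ to 3′ in the direction of the gene.
Hes5 (chr4:154960673-154960972, plus strand): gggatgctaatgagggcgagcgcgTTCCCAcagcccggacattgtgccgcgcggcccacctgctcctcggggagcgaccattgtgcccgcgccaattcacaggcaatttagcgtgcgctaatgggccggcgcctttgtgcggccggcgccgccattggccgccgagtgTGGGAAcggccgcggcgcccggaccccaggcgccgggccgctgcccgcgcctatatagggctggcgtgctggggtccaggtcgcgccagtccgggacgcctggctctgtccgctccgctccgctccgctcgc
Fabp7 (chr10:57784673-57784972, plus strand): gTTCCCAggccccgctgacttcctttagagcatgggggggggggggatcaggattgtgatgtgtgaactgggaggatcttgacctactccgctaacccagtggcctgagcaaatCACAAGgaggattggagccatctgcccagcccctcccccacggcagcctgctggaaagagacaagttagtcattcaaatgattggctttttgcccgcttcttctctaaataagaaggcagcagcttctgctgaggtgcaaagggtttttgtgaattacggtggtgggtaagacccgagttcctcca
Notch1 (chr2:26503773-26504072, minus strand): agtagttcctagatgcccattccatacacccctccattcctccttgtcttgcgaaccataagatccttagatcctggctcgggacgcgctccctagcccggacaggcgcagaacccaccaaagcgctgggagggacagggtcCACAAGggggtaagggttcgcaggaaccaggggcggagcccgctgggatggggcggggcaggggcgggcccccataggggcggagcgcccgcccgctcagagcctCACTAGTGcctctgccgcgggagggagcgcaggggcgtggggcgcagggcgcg
Dll1 (chr17:15376883-15377182, minus strand): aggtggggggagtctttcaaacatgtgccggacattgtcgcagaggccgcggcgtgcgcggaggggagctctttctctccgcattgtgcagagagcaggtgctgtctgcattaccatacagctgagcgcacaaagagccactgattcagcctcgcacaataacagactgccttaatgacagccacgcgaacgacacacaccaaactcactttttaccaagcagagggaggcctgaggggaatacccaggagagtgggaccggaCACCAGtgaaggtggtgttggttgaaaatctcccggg
Hes5 held 2 RBPJ core matches, beginning 226 and 82 bases before its start, and Fabp7 held 1, beginning 249 bases before its start. N-box letters matched 3 times in Notch1, where 2 of the matches overlap each other on opposite strands. There was 1 N-box match in the Dll1 window shown and 0 in its other window. Windows of Vim, Pax6 and Hopx held an N-box match as well, and those of Nes and Sox2 held neither motif. Of all 32851 promoter windows in the table, 25.6% held the RBPJ core and 42.5% the N-box, so such matches are common, and a match is not evidence of binding.

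The values are TPM, in which each gene's signal is divided by its transcript length and by the library's total, so levels can be compared between genes. Estimated depth was between 3.24 and 4.14 aligned gigabases in S156A libraries and between 3.15 and 3.37 in WT libraries. It is the most frequent ratio of coverage to FPKM, which only 13.2% to 13.8% of rows with FPKM over 10 had, so it is rough. The markers of neurons were present in every library, with a summed level of 2905 to 4115 TPM in S156A and 3799 to 5141 TPM in WT. Ppme1 was at 72.4, 89.0 and 82.7 TPM in S156A and at 92.4, 95 and 74.0 TPM in WT, and a point mutation need not alter this level, so it does not check the genotype labels. S156A replicate 1 and WT replicate 3 stood apart: the summed level of 10 skeletal muscle genes was 7226 TPM in S156A replicate 1 and 6697 TPM in WT replicate 3. It was 59.6 and 50.7 TPM in S156A replicates 2 and 3, and 18.9 and 854 TPM in WT replicates 1 and 2, and of the 10 genes 0 were called. The difference of each member is therefore also given without S156A replicate 1 and WT replicate 3. In bulk tissue, fewer cells of a type and less RNA per cell cannot be told apart.

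The comparison of S156A with WT asks whether the transcripts of radial glia and of the Notch pathway differ with the S156A change in PME-1. All 10 members had a higher mean in S156A than in WT, but none passed the test across all genes. The fold between the group means lay between 1.09 for Pax6 and 1.42 for Nes, and the median log2 difference was 0.36, against 0.09 for all 18893 genes tested. Of the 10 members 0 were called by limma at an adjusted p under 0.05, where 0.159% of all tested genes were called. A positive difference was found in 61.7% of all tested genes. For 3 members, Nes, Dll1 and Notch1, every S156A library lay above every WT library, which held for 13.7% of all tested genes (20.8% were free of overlap in either direction). The same 3 had an unadjusted p under 0.05, which 8.41% of tested genes had in that direction.

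The order of the levels was the same in both groups. Fabp7 came first, followed by Vim, Sox2, Hes5, Nes, Hopx, Pax6, Notch1, Hes1 and Dll1. Fabp7 and Vim each lay clear of the gene below them in every library of both groups, and Hes5 lay clear of Nes. Sox2 and Hes5 overlapped in S156A but not in WT, Nes and Hopx overlapped in WT but not in S156A, and the range of Hes1 overlapped those of Notch1 and Dll1 in both groups. The summed level of the 10 genes was 2068, 2179 and 2479 TPM in S156A, against 2061, 1800 and 1788 TPM in WT, and Fabp7 alone made up 53.0% to 65.02% of it in S156A libraries and 53.0% to 71.1% in WT libraries.

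**Figure D1:**
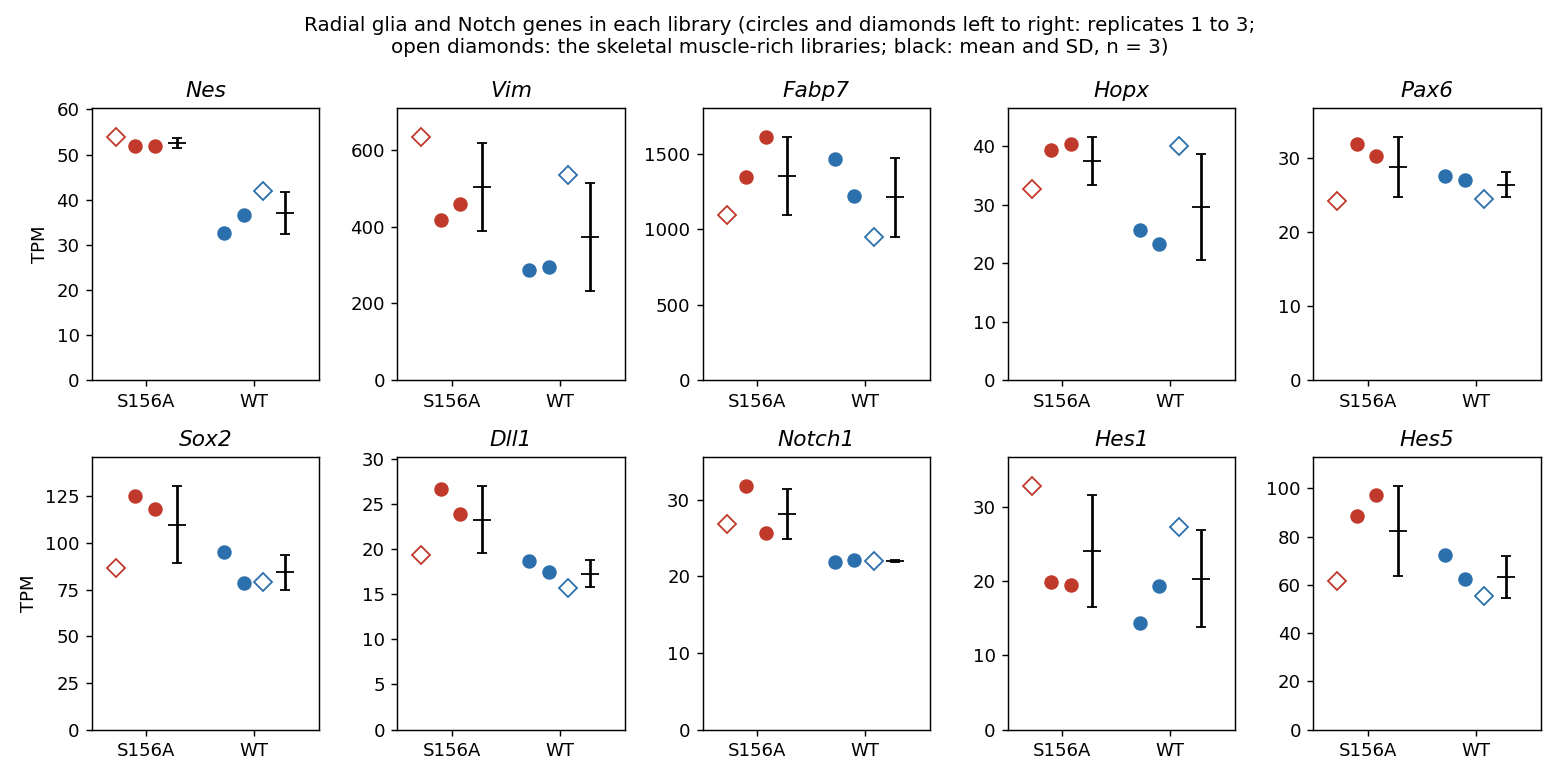
Level of each member in TPM (y axes from 0) in the 3 S156A libraries (red) and the 3 WT libraries (blue), replicates 1 to 3 from left to right, with the mean and SD in black (n = 3 each). Open diamonds are S156A replicate 1 and WT replicate 3, the libraries richest in skeletal muscle transcripts; Nes, Dll1 and Notch1 show no overlap between groups, and Vim and Hes1 are highest in the open diamonds.

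Among the genes of the radial glial fibre, Nes encodes nestin, the intermediate filament protein of neural stem cells (chromosome 3, 87878385 to 87887758 in the files' coordinates). Nes was at 53.9, 51.8 and 52.0 TPM in S156A, against 32.6, 36.5 and 42.0 TPM in WT. The S156A libraries lay close together and all above the WT libraries, whose highest value was in replicate 3. Its mean was 52.6 ± 1.19 TPM in S156A and 37.0 ± 4.73 TPM in WT (SD, n = 3 each), and the log2 difference was 0.50 (SE 0.12; 95% interval 0.21 to 0.79; limma unadjusted p = 0.00448, adjusted p = 0.18). Nes had the largest difference of the 10 over 6 libraries, and its signed difference stood at percentile 89.0 among those of all tested genes. Without the muscle-rich libraries the difference was 0.58 (limma adjusted p = 0.14). Its unadjusted p stayed under 0.05 in all 22 alternative analyses, while its adjusted p ran from 0.064 to 0.54. An exact permutation test of 3 against 3 libraries gave p = 0.1 for Nes, Dll1 and Notch1, the smallest such a test can give.

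Vim encodes vimentin, the other filament protein of radial glia, which is also made by astrocytes, endothelial cells and fibroblasts (chromosome 2, 13578738 to 13587637). Vim was at 634, 417 and 460 TPM in S156A, against 288, 295 and 535 TPM in WT. The highest library of each group was its muscle-rich one, and the groups overlapped because WT replicate 3 lay above S156A replicates 2 and 3. The log2 difference over all 6 libraries was 0.47 (SE 0.27; limma adjusted p = 0.49), with 0.30 when S156A replicate 1 alone was left out and 0.77 when WT replicate 3 alone was. Without the muscle-rich libraries it was 0.59 (SE 0.10; limma unadjusted p = 0.00191, adjusted p = 0.11). The remaining libraries of each group lay closer together, and the groups did not overlap there.

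Fabp7 encodes the brain fatty acid binding protein, a radial glial marker that Notch signalling is known to switch on (chromosome 10, 57660977 to 57664546). Fabp7 was at 1096, 1348 and 1612 TPM in S156A, against 1466, 1219 and 947 TPM in WT. Here the muscle-rich library was the lowest of each group, the opposite of Vim. The groups overlapped across most of their range, and differed by 0.16 on the log2 scale (SE 0.22; 95% interval -0.34 to 0.67; limma adjusted p = 0.78). It was 0.14 without both muscle-rich libraries, and with 1 library left out it was 0.31 without S156A replicate 1 or WT replicate 1, 0.03 without S156A replicate 3 and -0.0012 without WT replicate 3.

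Hopx, an atypical homeobox gene used to mark late and outer radial glia and the astrocyte lineage, lies on chromosome 5 (77234835 to 77262968). Hopx was at 32.7, 39.3 and 40.3 TPM in S156A, against 25.6, 23.3 and 40.0 TPM in WT. WT replicate 3 reached the S156A range while the other WT libraries lay below it. The log2 difference was 0.36 (SE 0.21; limma adjusted p = 0.50) over 6 libraries. It was 0.68 (SE 0.13; limma unadjusted p = 0.00304, adjusted p = 0.13) without the muscle-rich libraries, the largest value among the members in that analysis. Leaving out WT replicate 3 alone gave 0.59, and leaving out WT replicate 2 alone gave 0.21.

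Both transcription factors of the radial glial state overlapped between the groups in their annotated values. Pax6, which drives cortical radial glia towards neurogenesis and is also used in cerebellar granule cells and the eye, lies on chromosome 2 (105499245 to 105527709). Pax6 was at 24.3, 31.9 and 30.4 TPM in S156A, against 27.7, 27.1 and 24.5 TPM in WT. The values of the groups were interleaved, and the log2 difference of 0.12 (SE 0.14; 95% interval -0.22 to 0.45; limma adjusted p = 0.77) was the smallest of the 10. It was 0.18 without both muscle-rich libraries, 0.23 without S156A replicate 1, 0.04 without S156A replicate 2, 0.07 without S156A replicate 3 and 0.06 without WT replicate 3. Sox2, the pluripotency and neural stem cell factor shared by all radial glia, lies on chromosome 3 (34704554 to 34706610). Sox2 was at 86.5, 125 and 118 TPM in S156A, against 95.2, 78.8 and 79.1 TPM in WT. S156A replicates 2 and 3 stood above all WT libraries, and S156A replicate 1 fell within the WT range. The log2 difference was 0.37 (SE 0.16; limma unadjusted p = 0.059, adjusted p = 0.38), and 0.48 (SE 0.13; limma adjusted p = 0.19) without the muscle-rich libraries.

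Of the pathway's ligand and receptor, Dll1 encodes a Delta ligand shown by differentiating progenitors to their neighbours (chromosome 17, 15587616 to 15597134). Dll1 was at 19.3, 26.6 and 23.9 TPM in S156A, against 18.65, 17.5 and 15.7 TPM in WT. The groups did not overlap, but S156A replicate 1 stood only just above WT replicate 1. The log2 difference was 0.40 (SE 0.16; 95% interval 0.02 to 0.78; limma unadjusted p = 0.0419, adjusted p = 0.34), and 0.46 without the muscle-rich libraries (limma adjusted p = 0.25). Notch1, the main Notch receptor of radial glia, also active in endothelium, lies on chromosome 2 (26347915 to 26406675). Notch1 was at 26.9, 31.8 and 25.6 TPM in S156A, against 21.9, 22.1 and 22.0 TPM in WT. The WT libraries were nearly equal, and all S156A libraries lay above them. The log2 difference was 0.33 (SE 0.13; 95% interval 0.03 to 0.64; limma unadjusted p = 0.0359, adjusted p = 0.33), and 0.36 without the muscle-rich libraries (limma adjusted p = 0.34). The unadjusted p of Dll1 was under 0.05 in 13 of the 22 alternatives and that of Notch1 in 12. The ratio of Dll1 to Notch1 within a library was 0.72, 0.84 and 0.93 in S156A and 0.85, 0.79 and 0.71 in WT, and the groups overlapped in this ratio (exact permutation p = 0.7).

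The HES effectors had unlike patterns. Hes1, a Notch target in radial glia that many other tissues also express, lies on chromosome 16 (29883202 to 29886614). Hes1 was at 32.7, 19.9 and 19.5 TPM in S156A, against 14.3, 19.3 and 27.3 TPM in WT. As with Vim, the muscle-rich library was the highest of each group. The log2 difference was 0.24 (SE 0.28; 95% interval -0.43 to 0.90; limma adjusted p = 0.76), and it was 0.0015 without S156A replicate 1, 0.36 without S156A replicate 3, 0.02 without WT replicate 1, 0.46 without WT replicate 3 and 0.23 without both muscle-rich libraries. Hes5, the Notch target most restricted to neural progenitors, lies on chromosome 4 (155045380 to 155046828), and its start region is printed above. Hes5 was at 61.5, 88.4 and 97.1 TPM in S156A, against 72.3, 62.3 and 55.2 TPM in WT. The muscle-rich library was the lowest of each group. The log2 difference was 0.36 (SE 0.19; limma unadjusted p = 0.102, adjusted p = 0.45), and 0.46 (SE 0.13; limma unadjusted p = 0.0132, adjusted p = 0.20) without the muscle-rich libraries. It was 0.55 without S156A replicate 1 alone and 0.23 without S156A replicate 3 alone.

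**Figure D2:**
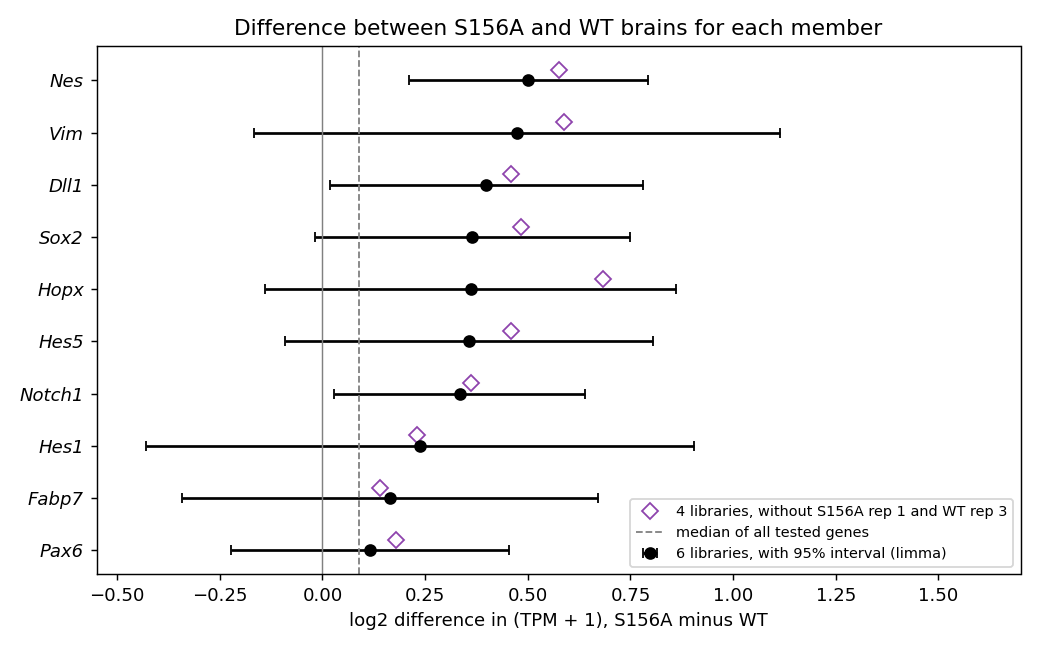
Difference in log2(TPM + 1), S156A minus WT, for each member (x axis), with its 95% interval from limma over 6 libraries (black) and the value without S156A replicate 1 and WT replicate 3 (open diamonds). The dashed line is the median of all tested genes, 0.09; the intervals of Nes, Dll1 and Notch1 lie above 0, and that of each other member spans 0.

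The members fell into different patterns across libraries, which the genotype comparison averages. Nes, Vim and Hes1 were highest in the muscle-rich library of both groups, a pattern found in 19.8% of all tested genes. Fabp7, Pax6, Hes5 and Dll1 were lowest in the muscle-rich library of both groups, as were 22.0% of all tested genes. Notch1, Sox2 and Hopx did neither. Ratios within a library put this split in numbers, and since the pairs were picked from it they are a description only. Hes5 stood to Hes1 as 1.88, 4.45 and 4.99 in S156A and as 5.05, 3.24 and 2.02 in WT. The genotypes overlapped fully (exact permutation p = 1). Fabp7 stood to Vim as 1.73, 3.24 and 3.50 in S156A and as 5.10, 4.14 and 1.77 in WT (exact permutation p = 0.5). Ratios of 5 pairs of members were computed, and their smallest exact p was 0.5.

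**Figure D3:**
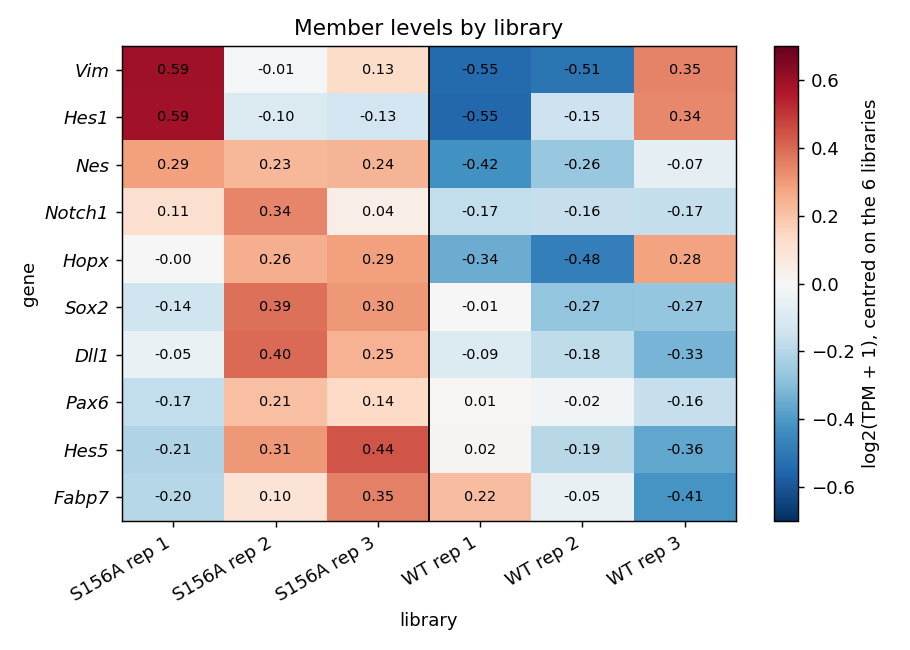
Level of each member in each library as log2(TPM + 1), centred on the mean of the 6 libraries (red above, blue below), with S156A libraries left of WT libraries. Vim and Hes1 are at 0.59 in S156A replicate 1 and at 0.35 and 0.34 in WT replicate 3, where Hes5 is at -0.21 and -0.36 and Fabp7 at -0.20 and -0.41.

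**Figure D4:**
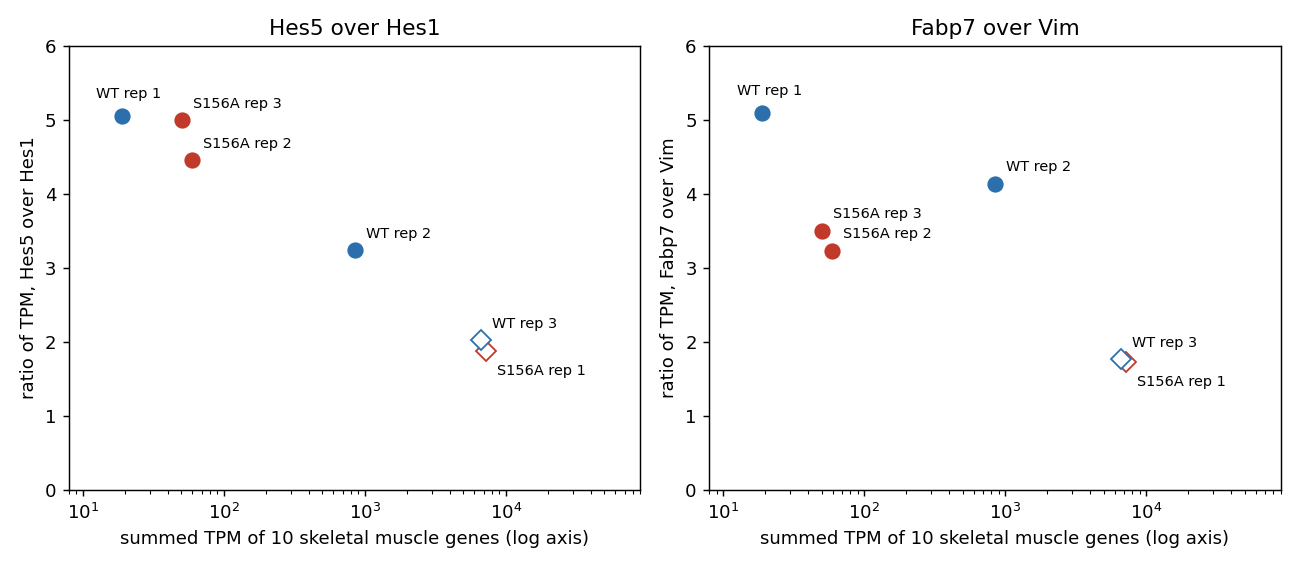
Ratio of TPM within each library (y axes) for Hes5 over Hes1 (left) and Fabp7 over Vim (right), against the summed TPM of 10 skeletal muscle genes (log x axis); S156A in red, WT in blue. Both ratios are lowest in S156A replicate 1 and WT replicate 3 (open diamonds), where the muscle sums are 7226 and 6697 TPM.

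The libraries were also compared in subsets. S156A replicate 1 exceeded WT replicate 3 for 8 of the 10 genes, as it did for 56.4% of all tested genes, with ratios of 0.82 for Hopx and 0.99 for Pax6 and between 1.09 for Sox2 and 1.28 for Nes for the others. This pair is 1 library against 1 and has no replicate check. The mean of S156A replicates 2 and 3 exceeded that of WT replicates 1 and 2 for all 10 members, by 1.102 times for Fabp7 to 1.63 times for Hopx, and 60.7% of all tested genes had a positive difference in these libraries. Muscle content was not alike in these 4 libraries, since WT replicate 2 held the 854 TPM of muscle transcripts given above. In those 4 libraries the groups did not overlap for 9 members, Fabp7 being the exception, where 32.2% of all tested genes were higher without overlap. With 6 of the 10 at an unadjusted p under 0.05, against 10.5% of all tested genes in that direction, still 0 were called by limma, as were 0 of all genes (0%). Genes of some other outside tissues also varied with these libraries. The summed level of 7 meningeal fibroblast genes was 2597, 400.5 and 403 TPM in S156A and 174, 519 and 2109 TPM in WT. Col1a1, the most abundant of these, was at 1318, 140 and 148 TPM in S156A and at 53, 216 and 934.5 TPM in WT. Aldh1a2 and Foxc1, of the same list, varied less. Aldh1a2 was at 22.0, 21.9 and 21.7 TPM in S156A and at 13.6, 19.3 and 21.9 TPM in WT. Foxc1 was at 12.2, 9.85 and 10.4 TPM in S156A and at 5.16, 7.06 and 12.0 TPM in WT. The 6 muscle progenitor genes, of which 5 passed the filter on low values, had sums of 9.77 to 86.0 TPM in S156A and 9.57 to 67.4 TPM in WT. Myog held most of the sum in S156A replicate 1 and WT replicate 3, at 59.6 and 47.7 TPM. Myf5, a defining gene of that list, was listed at 0 in S156A replicates 2 and 3 and in WT replicates 1 and 2. Pax7 and Pax3, of the same list, went the other way and were lowest in the muscle-rich library of each group. Pax7 was at 2.48, 5.07 and 4.44 TPM in S156A and at 4.95, 4.385 and 3.41 TPM in WT. Pax3 was at 2.07, 4.475 and 5.19 TPM in S156A and at 3.34, 4.06 and 2.42 TPM in WT. The summed level of pituitary genes was 373, 198 and 176 TPM in S156A, and each of these sums lay above all WT sums. Of the 6 pituitary genes tested 4 were higher and 2 lower in S156A, and 0 were called. Gh held most of the S156A sums. Gh was at 310, 166 and 130 TPM in S156A and at 0, 1.69 and 97.1 TPM in WT. Without Gh the sums overlapped, at 31.69 to 62.96 TPM in S156A and 19.75 to 59.12 TPM in WT. The part of muscle or connective tissue in the levels of Vim and Hes1 was not tested, nor was that of pituitary in the members' levels.

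Of 42 genes in 7 lists covering the Notch pathway, the 4 members included, 32 had positive and 10 negative differences, with a median log2 difference of 0.19, and 0 were called. Without the 4 members, 28 of 38 were positive, with a median of 0.16. In 7 of these 38 every S156A library lay above every WT library and in 2 below, against 13.7% and 7.05% of all tested genes. Among the receptors, Notch2 was at 19.8, 19.1 and 14.9 TPM in S156A and at 9.59, 11.1 and 13.7 TPM in WT, and differed by 0.61 on the log2 scale (SE 0.19; limma adjusted p = 0.26). Notch3, the receptor of mural cells and some radial glia, and Notch4, of endothelium, had differences of -0.03 and 0.30, with groups that overlapped. The ligands did not share a direction. Jag2 lay lower in every S156A library, at 42.8, 43.1 and 39.5 TPM, against 57.8, 45.8 and 57.8 TPM in WT (log2 difference -0.35, SE 0.13; limma adjusted p = 0.31). Dll3, an inhibitory Delta-like protein of newborn neurons, differed by 0.37 and Jag1 by 0.14, with overlapping groups.

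All 8 genes of Notch cleavage had positive differences, with a median of 0.21. The groups did not overlap for 3 of them, the ADAM proteases Adam10 (0.29) and Adam17 (0.47) and the gamma-secretase subunit Aph1a (0.29), with limma adjusted p of 0.31, 0.26 and 0.26, where 13.7% of all tested genes were higher without overlap. Psenen, another gamma-secretase subunit, differed by 0.19. Among genes that prepare ligands and receptors, Neurl1a, a ubiquitin ligase of the neuralized family, was at 25.8, 25.1 and 26.9 TPM in S156A, against 37.99, 39.7 and 35.3 TPM in WT. The groups differed by -0.52 on the log2 scale (SE 0.11; limma adjusted p = 0.13), the largest negative one of the 42, with no overlap. Mfng, a fringe glycosyltransferase that modifies Notch receptors, lay higher in every S156A library (log2 difference 0.59; limma adjusted p = 0.22). Lfng and Pofut1 differed by 0.19 each, with overlapping groups.

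Rbpj, the DNA-binding partner of cleaved Notch, was at 28.3, 23.6 and 28.3 TPM in S156A, against 14.3, 13.5 and 26.8 TPM in WT. WT replicate 3 stood within the S156A range, and the groups differed by 0.59 on the log2 scale (SE 0.26; limma adjusted p = 0.37). The coactivator genes Maml1, Maml2 and Maml3 differed by 0.20, 0.18 and -0.10, of which Maml2 did so without overlap between groups (limma adjusted p = 0.70). All 5 effector genes had positive differences. Hey2 (0.42) did not overlap between groups, while Heyl (0.34) and Hey1 (0.14) did. Of the 6 genes that restrain the pathway or its output, 4 were positive, with a median of 0.11. Numb, whose protein antagonises Notch, differed by 0.40, Hes6 by 0.22, Itch by 0.21 and Numbl by -0.04, all with overlapping groups.

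**Figure D5:**
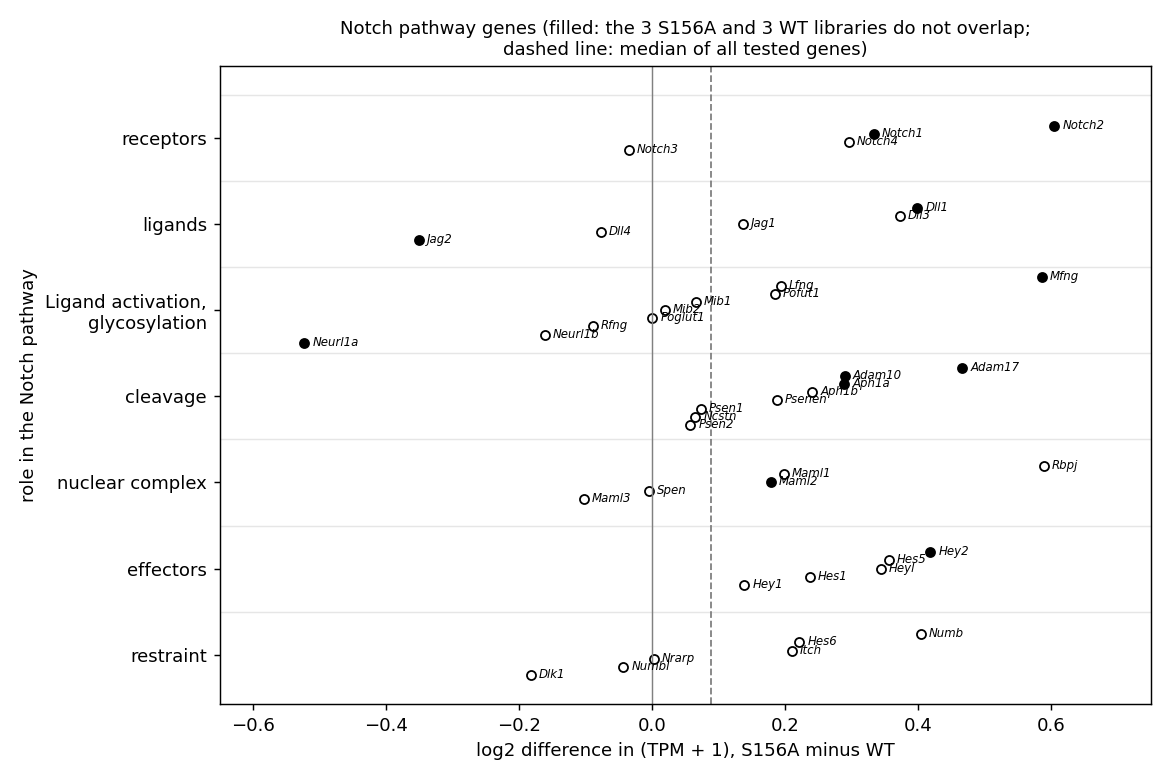
Difference in log2(TPM + 1), S156A minus WT (x axis), for 42 genes of the Notch pathway grouped by role (y axis). Filled points are genes whose S156A and WT libraries do not overlap, such as Notch2 at 0.61 and Neurl1a at -0.52; the dashed line is the median of all tested genes.

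Of 22 further radial glia genes, 19 had positive and 3 negative differences, with a median of 0.35, against 0.36 for the 10 members, and 0 were called, where 0.159% of all tested genes were. In 7 of the 22 every S156A library lay above every WT library, against 13.7% of all tested genes. Pdpn, which encodes the surface glycoprotein podoplanin, was at 45.8, 43.2 and 49.7 TPM in S156A, against 29.8, 25.95 and 30.8 TPM in WT (log2 difference 0.66, SE 0.12; limma adjusted p = 0.094). Dbi, the acyl-CoA binding protein gene, differed by 0.46, the matrix gene Tnc by 0.39 and the gliogenic factor gene Nfib by 0.51, each without overlap (limma adjusted p of 0.21, 0.22 and 0.26). Of 8 genes of outer or late radial glia 6 had positive differences (median 0.35), and Tnc alone was free of overlap. Moxd1, Il6st and Itgb5 differed by 0.37, 0.22 and 0.33. Several of these genes are also expressed by astrocytes, choroid plexus or meninges.

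Lists for the cells that descend from radial glia, and for other cells of the brain, did not share a direction. Among 8 neuron genes, 2 had positive and 6 negative differences (median -0.38), and 0 were called. Every S156A library lay below every WT library for 4 of the 8, against 7.05% of all tested genes, and these were Rbfox3, Syt1, Snap25 and Stmn2, with log2 differences of -0.37, -0.54, -0.52 and -0.52. The groups overlapped for Dcx (0.34), Map2 (0.32), Tubb3 (-0.39) and Elavl3 (-0.08). The sum of the 8 genes overlapped as well, at 2905 to 4115 TPM in S156A and 3799 to 5141 TPM in WT. Among 10 astrocyte genes, 7 were higher and 3 lower in S156A, 1 was called higher and 0 lower (0.0847% and 0.0741% of all tested genes), and their sum was 1754 to 2588 TPM in S156A and 964 to 1065 TPM in WT. Apoe, which microglia also make, held most of that sum, and without it the sum was 561 to 726 TPM in S156A and 448 to 482 TPM in WT. The called gene was Gfap, the astrocyte filament that some radial glia also make, at 70.9, 121 and 136 TPM in S156A, against 20.1, 23.8 and 19.7 TPM in WT. The 3 lower genes were Aldoc (log2 difference -0.41; limma adjusted p = 0.33), Aldh1l1 (-0.115) and Slc1a2 (-0.03). Aldoc lay lower in every S156A library, and the other lower genes overlapped. Of the 10 genes 6 were higher without overlap and 1 lower, against 13.7% and 7.05% of all tested genes. Intermediate progenitor genes, which radial glia switch on as they produce neurons, had positive differences in all 6 tested, with a sum of 206 to 231 TPM in S156A and 124 to 148 TPM in WT. All 14 cell cycle genes had positive differences, with a sum of 370 to 389 TPM in S156A and 240 to 322 TPM in WT, or 224 to 267 TPM in S156A and 150 to 224.2 TPM in WT without Pcna. Of 8 ependymal genes 7 were higher, with a sum of 73.4 to 115 TPM in S156A and 41.6 to 60.0 TPM in WT, and without Foxj1 the groups overlapped, at 34.1 to 78.3 TPM in S156A and 21.6 to 41.1 TPM in WT. In the intermediate progenitor, cell cycle and ependymal lists 0 genes were called. Higher without overlap were 6 of 6, 6 of 14 and 5 of 8 of their tested genes, against 13.7% of all tested genes. Their median log2 differences were 0.65, 0.42 and 0.76, against 0.36 for the 10 members. Oligodendrocyte precursor genes divided into 4 higher and 4 lower (median -0.03), with 1 called higher, against 0.0847% of all tested genes. Their sum was 254 to 273 TPM in S156A and 255 to 265 TPM in WT. The 9 endothelial genes summed to 295 to 335 TPM in S156A and 221 to 288 TPM in WT, and the 7 mural genes to 226 to 239 TPM in S156A and 157 to 177 TPM in WT, with 0 called in either list. Without the most abundant gene of each, Cldn5 and Vtn, both sums overlapped between groups, at 124 to 204 TPM in S156A and 118 to 166 TPM in WT for the endothelial genes, and at 108 to 132 TPM in S156A and 87.9 to 117 TPM in WT for the mural genes. Microglia, which like endothelial and mural cells do not arise from radial glia, had 4 of 11 genes called higher, against 0.0847% of all tested genes. In 9 of the 11 every S156A library lay above every WT library, against 13.7% of all tested genes, and their median log2 difference was 1.475. The sum of the 11 microglia genes was 459 to 557 TPM in S156A and 148 to 245 TPM in WT. The 8 choroid plexus genes summed to 2373 to 3516 TPM in S156A and 1147 to 1563 TPM in WT, with 0 called. The part of these cells in the members' levels was not tested.

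Markers of brain regions differed in value as well. The 8 forebrain and cortical neuron genes were all higher (median 0.54), with a sum of 634 to 1052 TPM in S156A and 494 to 562 TPM in WT. The 8 Hox genes of hindbrain and spinal cord had 7 lower values (median -0.71). Of these 1, Hoxb5, was called lower, against 0.0741% of all tested genes. The sum of the 8 Hox genes was 51.4 to 70.2 TPM in S156A and 97.3 to 119 TPM in WT. The 6 cerebellar granule cell genes had sums of 240 to 333 TPM in S156A and 258 to 304 TPM in WT. The 8 lens and retina genes, of which 4 passed the filter on low values, had a sum of 14.1 to 68.1 TPM in S156A and 22.8 to 26.6 TPM in WT. Their sum was highest in S156A replicate 1, where Pax6 was at 24.3 TPM, near its 24.5 TPM in WT replicate 3. The part of eye tissue in the level of Pax6 was not tested. Whether the share of forebrain in the pools differed, and its part in the members' levels, was not tested.

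By the rule set for likeness, the genes closest to the mean profile of the 10 members over the 6 libraries were Rrm1, Rpa2, Spcs3, Frmd8 and Hdgf. Their root mean square distances from it were 0.029, 0.033, 0.034, 0.035 and 0.036 in log2(TPM + 1), out of 10349 candidate genes. Rrm1, a subunit of ribonucleotide reductase, was at 37.7, 39.9 and 41.8 TPM in S156A, against 31.8, 29.5 and 33.7 TPM in WT. Among the members Notch1 lay closest to the mean profile (0.097) and Hes1 farthest from it (0.36), so the mean profile describes the individual members unevenly.

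Some members share ground with other genes. Sox2 lies within Sox2ot on the same strand, which was at 14.5, 3.21 and 16.8 TPM in S156A and at 16.2, 3.42 and 22.9 TPM in WT, and the small RNA gene Mir6996 lies within Notch1. Genes on the opposite strand overlap Pax6, Hes5, Notch1 and Hopx; the highest of them, Gm20421 at Hes5, averaged 8.45 TPM in S156A and 6.19 TPM in WT. The library kit keeps strand, but the sources used here do not say whether the authors' counting used it. When each member's annotated value was replaced by the assembled loci on its strand, all 10 differences were again positive, with Pax6 at 0.38 in place of 0.12, Sox2 then including Sox2ot, and 0 called by limma. The groups then did not overlap for Pax6, at 33.2, 35.9 and 41.1 TPM in S156A and 31.1, 26.8 and 26.0 TPM in WT (limma unadjusted p = 0.0252, adjusted p = 0.296). Sox2 did not overlap either, at 126.3 to 147.4 TPM in S156A and 101.4 to 125.4 TPM in WT (limma unadjusted p = 0.0376, adjusted p = 0.334). The overlap of both genes thus depends on the rows used.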

How the data were processed

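RNA was measured in 6 libraries of whole mouse brain, 3 S156A and 3 WT, each from 3 brains. The deposited tables are StringTie gene abundance tables with FPKM, TPM and coverage, per the file headers; StringTie 2.1.5, HISAT2 2.2.1 and Trim Galore 0.6.6 are named in the submitters' processing notes. The notes give the human build hg38, but rows carry mouse gene identifiers. No member started within 1000 bases of its GRCm38.p6 start (0 of 10), so coordinates are those of the files, whose build the sources used here do not give. The tables hold no counts, so no counting interval can be given; coverage divided by FPKM gave an estimate of depth. Because TPM values are scaled to a library total, more of one transcript lowers the others. The annotated rows added up to 95.09% to 95.62% of 1000000 TPM in S156A libraries and to 93.09% to 95.76% in WT libraries, lowest in WT replicate 2. The assembled rows sum to 1000000 TPM in each library and were kept apart from the 55359 annotated genes, whose rows were summed by identifier.

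The 18893 genes whose mean TPM reached 1, all 10 members among them, were tested on log2(TPM + 1) with limma 3.58.1 in R 4.3.3, with a mean-variance trend, two-sided and with no covariate; a gene was called at a Benjamini-Hochberg adjusted p under 0.05 over all tested genes. Fold changes on this scale understate those of low genes. Single values were compared by an exact permutation test, two-sided. Gene lists were described without a test. Named were all 10 members, up to 4 genes of each pathway or radial glia list with the smallest unadjusted p, and the 5 genes with mean TPM of at least 10 nearest in profile. Hoxb5, the named muscle progenitor, meningeal, astrocyte and neuron genes, the most abundant genes of lists and genes overlapping a member were named after their values were seen. Members and lists were chosen with earlier results of these data known. Alternatives changed the unit, pseudocount, filter, scaling, variance model, pairing, covariate, libraries and rows used.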

Additional observations from a re-analysis of the deposited data

Results flagged for a closer look

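Opposite-strand transcription at Hopx stood out in rows that the comparisons do not use. Assembled loci on the strand opposite to Hopx had 1.40, 1.02 and 1.94 TPM in the S156A libraries, and no WT library had such a locus. The lowest S156A value was thus 1.02 TPM, with none listed in WT. The annotated gene Hopxos on that strand did not separate the groups, at 0.35, 0.99 and 1.24 TPM in S156A and at 0.78, 0.53 and 0.49 TPM in WT. An assembled locus is listed where the assembler built one, so a missing row is not a measured 0, and the difference was not tested.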

How the results depend on the processing

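Over 22 alternatives 0 members were called in any, and their median log2 difference ran from 0.29 to 0.46. All 10 differences kept their sign in every alternative except that of Fabp7, which ran from -0.0012 without WT replicate 3 to 0.3138 without WT replicate 1. The number of genes called across the series, 30 (16 higher, 14 lower), moved more. It was 0 with no filter on low values (3364 at an unadjusted p under 0.05), 0 with the replicate block (1880), 0 without both muscle-rich libraries (3141), 1 with a Y-linked covariate, 16 with eBayes without trend, 52 with quantile normalization and 309 with library weights. With 1 library left out it ran from 0 to 70: 1, 0 and 0 without S156A replicates 1 to 3 and 2, 0 and 70 without WT replicates 1 to 3, where each 0 came with 1542 to 2275 genes whose unadjusted p was under 0.05. The split was 13 higher and 24 lower with FPKM, 14 and 23 with a trimmed mean of M values and 16 and 36 with quantile normalization. The cause was not tested. Deviations from the group mean of same-numbered libraries correlated at -0.55, 0.20 and -0.41, and S156A replicate 1 correlated best with WT replicate 3 (0.65). Deviations within a group of 3 are tied to each other, and the best match joined the muscle-rich libraries. These values therefore cannot show whether replicate numbers pair the libraries. Under the block Nes kept an unadjusted p under 0.05, and Dll1 and Notch1 did not (0.085 and 0.077). The tables give no counts, so how far depth limits the lower members is unknown.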

Other observations

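Dlk1, an atypical ligand that can restrain Notch signalling and is abundant in embryonic muscle, was at 525, 48.6 and 57.4 TPM in S156A and at 42.9, 82.8 and 604 TPM in WT, named after its values were seen. Its highest libraries were S156A replicate 1 and WT replicate 3. Nrarp, a feedback inhibitor induced by Notch that was also picked after its values were seen, hardly varied, at 31.3, 33.6 and 36.4 TPM in S156A and at 34.8, 30.4 and 35.9 TPM in WT, a log2 difference of 0.0029. Ddah1, from the radial glia list, went against most of that list, at 70.9, 92.8 and 86.9 TPM in S156A and at 130, 119 and 89.3 TPM in WT (log2 difference -0.42; limma adjusted p = 0.35). The glutamate transporter gene Slc1a3, widely used to mark radial glia and astrocytes, was at 108, 149 and 142 TPM in S156A and at 141, 135 and 103 TPM in WT, with a log2 difference of 0.07. Both were named after their values were seen.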
